A study of Mus musculus with 6 samples.

Results

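Lung fibroblasts recovered 2 days after transfer into injured lungs were compared with untreated lung fibroblasts across the genes of 1 expression table. The Day 2 library held donor cells from Col-GFP mice on a C57BL/6 background (the promoter behind the GFP is not given in the sources used here), which were placed in the airways of wild type hosts and sorted by FACS as GFP-positive cells from the host lungs on day 2. The hosts had been given bleomycin into the trachea 7 days before the transfer. The Untreated library held lung fibroblasts of the same donor strain, taken from untreated animals by dissociation and negative selection for lineage markers, with no transfer and no host. The donors of both groups carried the Col-GFP transgene and received no bleomycin themselves. The table held 4 further libraries, of days 4 and 7 and of cells with low or high Acta2 reporter signal. Each group was 1 library, and the number of mice behind it is not given in the sources used here, and none of the differences given has a replicate check. The route into the library also differed, by FACS after a stay in the host or by negative selection alone, and cannot be told apart from the transfer. A gene was taken as measured when its mean over the Day 2 and Untreated libraries was at least 10 CPM (tags of the gene per 1000000 tags of the library), which 4256 of 24408 genes reached. Of the other genes, 10109 had no tag in either library and 10043 had tags but stayed under that mean.

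Fibroblasts make and repair the collagen-rich matrix of the lung, and those around the alveoli and those in the adventitia of vessels and airways carry different gene programs. Bleomycin breaks DNA and injures the alveolar wall, and the injured lung releases cytokines, growth factors and proteases to which fibroblasts respond by secreting chemokines, dividing and turning into contractile, matrix-producing cells. Chemokines bring in leukocytes, growth factors of the TGF-beta and activin family act through SMAD proteins, and entry into division is prepared by the synthesis of ribosomes, nucleotides and DNA replication proteins.

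Both libraries carried the transcripts of fibroblasts and almost none of blood cells. Col1a1 stood at 776 CPM in Day 2 cells, against 310.2 CPM in untreated cells. Col3a1 stood at 413 CPM in Day 2 cells, against 265 CPM in untreated cells. Pdgfra, a tag-sharing receptor gene typical of lung fibroblasts, stood at 38.2 CPM in Day 2 cells, against 29.98 CPM in untreated cells. None of the 24 macrophage markers was measured, and their summed level was 4.21 CPM in Day 2 cells and 3.84 CPM in untreated cells. The neutrophil markers summed to 8.097 CPM in Day 2 cells and 2.56 CPM in untreated cells, and the lymphocyte and pan-leukocyte markers to 4.53 CPM in Day 2 cells and 3.29 CPM in untreated cells. Ptprc, the leukocyte surface phosphatase, and the endothelial genes Pecam1 and Cdh5 were at 0 in both. Mesothelial markers were the largest such sum, at 133 CPM in Day 2 cells and 253 CPM in untreated cells, with Msln at 0.162 CPM in Day 2 cells, against 2.38 CPM in untreated cells. Slpi, an antiprotease, gave 59.6 CPM of the sum in Day 2 cells, and C3, which is also in the complement list, gave 159 CPM of it in untreated cells; 4 of the 15 mesothelial markers were at 0 in Day 2 cells and 1 in untreated cells. Epithelial markers summed to 44.2 CPM in Day 2 cells and 60.1 CPM in untreated cells, and smooth muscle and pericyte markers to 75.8 CPM in Day 2 cells and 63.4 CPM in untreated cells. Endothelial markers came to 16.03 CPM in Day 2 cells and 17.5 CPM in untreated cells, and erythroid and platelet markers to 9.23 CPM in Day 2 cells and 12.6 CPM in untreated cells. These are bulk libraries, so fewer cells of a kind and less RNA per cell cannot be told apart.

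The Day 2 cells differed from the untreated cells in 615 of the 4256 measured genes, or 14.5%, by at least 4-fold. The libraries held 6175334 tags (Day 2) and 5470701 tags (Untreated), and the 10 most abundant genes took 24.0% of the tags at Day 2 and 49.4% in untreated cells. The median measured gene had a log2(CPM + 1) that was 0.66 above its value in untreated cells, or 1.58-fold, and every fold and difference below is relative to that median gene. A centred difference is the Day 2 minus Untreated difference of log2(CPM + 1) with that shift taken out, so its median over all measured genes is 0. By this measure 299 genes (7.03%) lay 4-fold or more above and 316 (7.42%) 4-fold or more below their untreated level, and only these genes are said to have risen or fallen. Past 16-fold, 30 genes were higher and 71 lower, while 2537 genes (59.6%) lay within 2-fold of the median gene. With CPM left as deposited, 578 genes were higher and 200 lower, and with median-ratio size factors 385 were higher and 276 lower. A fold of a single gene is the ratio of CPM divided by the shift, with its exact 95% counting interval in parentheses, and covers counting error only. Calls use the centred difference instead, which the added 1 CPM makes smaller at low levels. A gene of low level can thus stay uncalled, or within 4-fold, although its CPM ratio divided by the shift passes 4-fold. A gene near 0 in one library passes the filter only where it is high in the other, so counts of risen members in families that were near 0 follow in part from the filter. The shares of 7.03% and 7.42% are the ones to set beside each count of called members below.

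**Figure D1:**
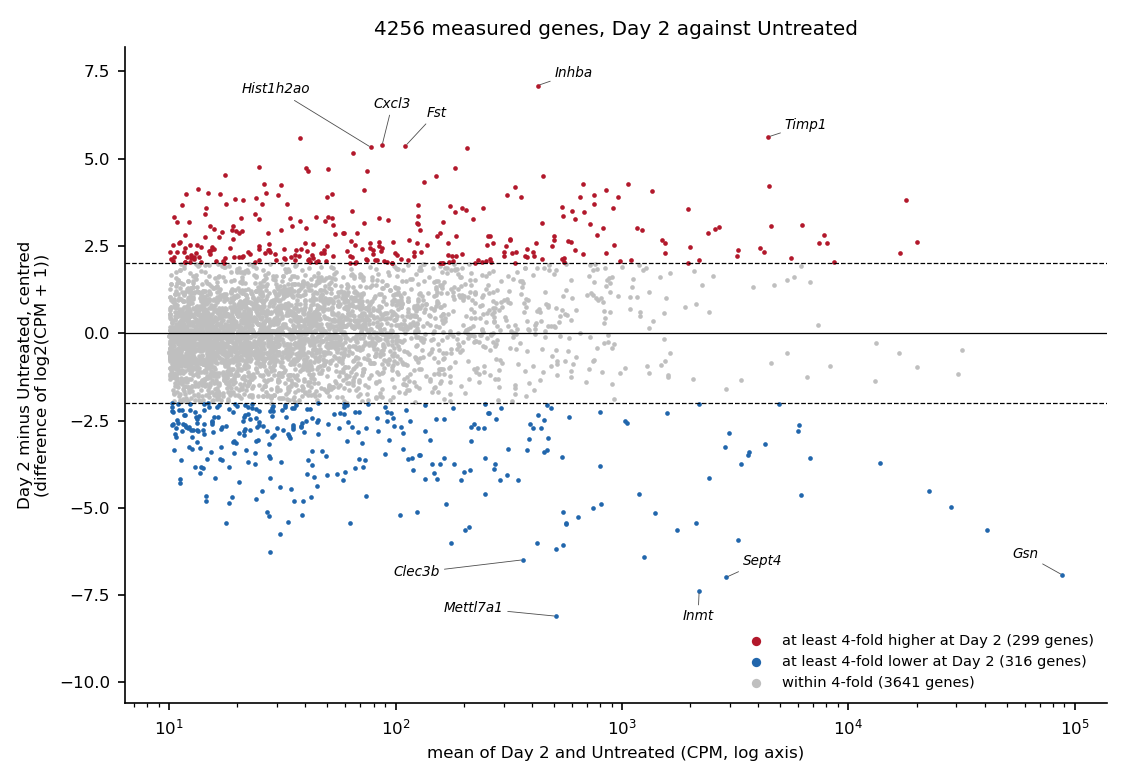
Each point is 1 of the 4256 measured genes, with the mean of the Day 2 and Untreated levels (CPM, log axis) across and the centred difference of log2(CPM + 1), Day 2 minus Untreated, up the page. The 299 genes above the upper dashed line were at least 4-fold higher and the 316 below the lower one at least 4-fold lower, and the 5 genes farthest out each way with a mean of at least 50 CPM carry their names.

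Short tags can be shared between genes, and this touches part of the values. Among the measured genes 870 (20.4%) hold a tag sequence that at least 20 other genes hold too, if the tags start at CATG, which is an assumption. Such genes, called tag-sharing below, made up 27.8% of the higher genes and 15.2% of the lower ones. The tag-sharing higher genes took 13.5% of all tags at Day 2 and 1.18% in untreated cells. Without tag-sharing genes 226 genes were higher and 262 lower. Only 3829 of the measured genes (90%) could be searched for tags, and the others count as not tag-sharing. Any CATG site of a transcript was counted, and not only the site nearest its 3′ end.

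Among genes with a mean of at least 50 CPM, those of the largest rise included those of activin signalling (Inhba and Fst), chemokines (Cxcl3 and Ccl2), matrix and a metalloprotease inhibitor (Cthrc1, Spp1 and Tnc, and Timp1) and chromatin (Hist1h2ao and Hmga1), and the peptide hormone gene Cck. Cck, the gut and brain peptide cholecystokinin, stood at 99.4 CPM in Day 2 cells, against 1.46 CPM in untreated cells, and was 43.1-fold higher (21.7 to 100.3). Hmga1, an architectural chromatin protein of growing cells, had 294 CPM in Day 2 cells, against 7.31 CPM in untreated cells, and was 25.5-fold higher (18.7 to 35.8). Among genes with a mean of at least 50 CPM, the 12 of the largest fall were Mettl7a1, Inmt, Sept4, Gsn, Clec3b, Fmo2, Pi16, G0s2, Ces1d, Ogn, Apoe and Gpx3. Gpx3, a secreted glutathione peroxidase, fell to 2506 CPM in Day 2 cells, against 79089.5 CPM in untreated cells, and was 49.8-fold lower (48.98 to 50.6). Apoe, a lipid carrier, fell to 164 CPM in Day 2 cells, against 6331 CPM in untreated cells, and was 60.8-fold lower (57.2 to 64.8). Gsn alone accounted for 2260.3 CPM of the Day 2 library and 173857 CPM of the Untreated library.

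**Figure D2:**
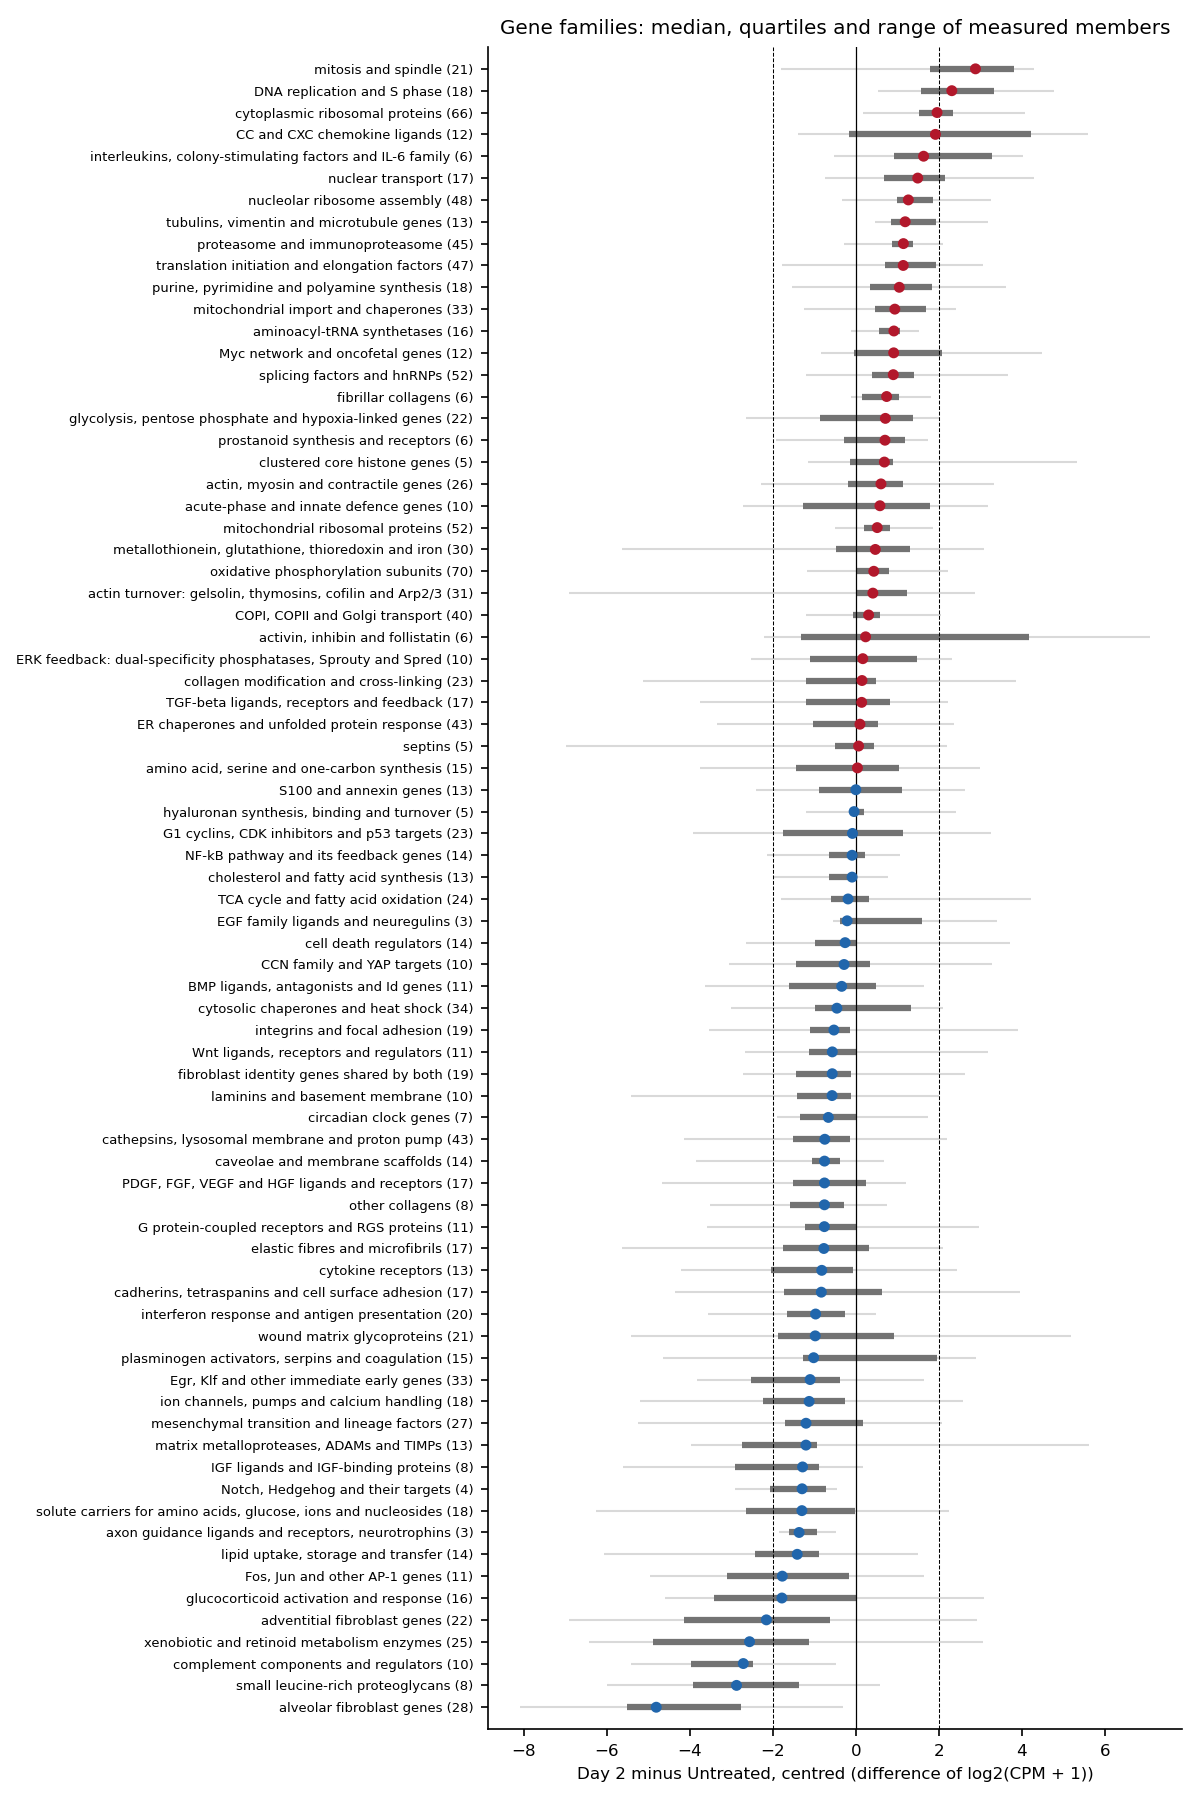
Each row is 1 of the gene families with at least 3 measured members (number in brackets), ordered by the median centred difference, Day 2 minus Untreated. The point is the median, the thick bar the quartiles and the thin line the range of the members; families of cell division and ribosomes stand at the top, and alveolar fibroblast genes, with a median of -4.81, at the bottom.

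The chemokine ligands that rose were attractants of neutrophils and monocytes. Of the 12 measured ligands (of 29 in the table), 6 rose and none fell, against 7.03% and 7.42% of all measured genes, and their median centred difference was 1.92. The risen ligands were Cxcl1, Cxcl2, Cxcl3 and Cxcl5, which act on neutrophils through the receptor Cxcr2, and Ccl2 and Ccl7, which act on monocytes through Ccr2. Cxcl1 was the most abundant of them, at 2747 CPM in Day 2 cells, against 354 CPM in untreated cells, and was 4.92-fold higher (4.696 to 5.16). Ccl7 stood at 1443 CPM in Day 2 cells, against 58.1 CPM in untreated cells, and Cxcl5 had 467 tags in Day 2 cells and none in untreated cells. Cxcl2 stood at 141 CPM in Day 2 cells, against 4.204 CPM in untreated cells. Cxcl3 stood at 173 CPM in Day 2 cells, against 1.65 CPM in untreated cells. Cxcl1 had the smallest relative rise of the 6 and the highest level in both libraries. Cxcl14, a chemokine abundant in resting lung fibroblasts, stood at 519.6 CPM in Day 2 cells, against 873 CPM in untreated cells. Ccl11, an eosinophil attractant, stood at 27.2 CPM in Day 2 cells, against 37.3 CPM in untreated cells; both lay below the median gene but within 4-fold. The tag-sharing Cxcl12, the ligand of Cxcr4, stood at 60.6 CPM in Day 2 cells, against 34.5 CPM in untreated cells.

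The promoters of Cxcl1, Cxcl2 and Cxcl3 are shown because all of these rose and hold a kB motif. Promoter sequences are those of RefSeq on build GRCm38.p6, of which 3344 of the 4256 measured genes had an entry, and each window below is the 150 bases before the annotated start of transcription, 5′ to 3′. Capitals mark matches to the kB motif on either strand (GGG, any 2 bases, TT, any base, CC), the kind of site that NF-kB proteins bind.
Cxcl1 (chr5:90891095-90891244, plus strand): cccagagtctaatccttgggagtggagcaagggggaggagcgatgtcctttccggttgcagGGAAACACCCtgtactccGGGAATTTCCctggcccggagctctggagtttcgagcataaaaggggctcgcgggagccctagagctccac
Cxcl2 (chr5:90903749-90903898, plus strand): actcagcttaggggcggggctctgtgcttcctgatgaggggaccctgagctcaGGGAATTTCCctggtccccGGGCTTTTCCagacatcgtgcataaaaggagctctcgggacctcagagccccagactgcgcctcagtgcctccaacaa
Cxcl3 (chr5:90785951-90786100, plus strand): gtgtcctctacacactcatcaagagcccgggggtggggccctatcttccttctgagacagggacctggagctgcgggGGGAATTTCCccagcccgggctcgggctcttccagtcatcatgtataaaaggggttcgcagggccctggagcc
All of these windows hold the motif at least once, between 71 and 97 bases before the start. Over the promoter entry of 300 bases, the motif was present in 4 of 7 measured chemokine genes with an entry, against 6.5% of measured genes and 4.79% of all 32851 promoter entries. Cxcl10, the fourth, did not rise. The motif was also present in 4 of 10 genes of the NF-kB pathway and its feedback, a family in which none rose. Among acute-phase genes it was present in 1 of 8. A gene counts as holding a motif when any of its entries does, so the share of measured genes is the like measure. A match is a run of letters and not a measured binding site.

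Interleukins and colony-stimulating factors rose through a few members of the IL-6 and granulocyte factor families. Of the 6 measured of 26 in the table, 3 rose and none fell. Lif, which signals through gp130, stood at 31.7 CPM in Day 2 cells, against 3.66 CPM in untreated cells, and was 5.51-fold higher (3.47 to 9.21). Il11, another gp130 cytokine, is tag-sharing and had 52.6 CPM in Day 2 cells, against 1.097 CPM in untreated cells. Csf3, the granulocyte colony-stimulating factor, had 140 tags in Day 2 cells against 1 tag in untreated cells, a ratio relative to the median gene of 78.7 (13.9 to 3129). All 3 of the risen cytokines were under 4 CPM in untreated cells. Il6 itself stood at 154 CPM in Day 2 cells, against 53.2 CPM in untreated cells. Csf1, the macrophage growth factor, stood at 51.98 CPM in Day 2 cells, against 14.6 CPM in untreated cells; both stayed within 4-fold. The median of this family was 1.63, but without the filter on low values it was -0.08.

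Receptor genes held both rises and falls. Of 13 measured cytokine receptor genes 2 (15.4%) rose and 4 (30.8%) fell, against 7.03% and 7.42% of all measured genes. The receptor median was -0.82, and 0.10 without the filter on low values. Tnfrsf12a, the receptor of the cytokine TWEAK, rose to 684 CPM in Day 2 cells, against 80.8 CPM in untreated cells, and was 5.37-fold higher (4.87 to 5.94). Il13ra1, a chain of the receptors for IL-4 and IL-13, was 6.94-fold higher (4.23 to 12.1). Ifngr1, the ligand-binding chain of the interferon-gamma receptor, fell to 54.1 CPM in Day 2 cells, against 644 CPM in untreated cells, and was 18.8-fold lower (16.8 to 21.1). The alpha receptor chains for IL-6 and IL-11 both fell. Il6ra fell to 7.29 CPM in Day 2 cells, against 35.6 CPM in untreated cells. Il11ra1 fell to 90.7 CPM in Day 2 cells, against 354 CPM in untreated cells. Il11 and its receptor chain thus stood on opposite sides of the median gene. Cxcr7, a scavenger receptor for CXCL12, was 4.42-fold lower (3.197 to 6.18).

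**Figure D3:**
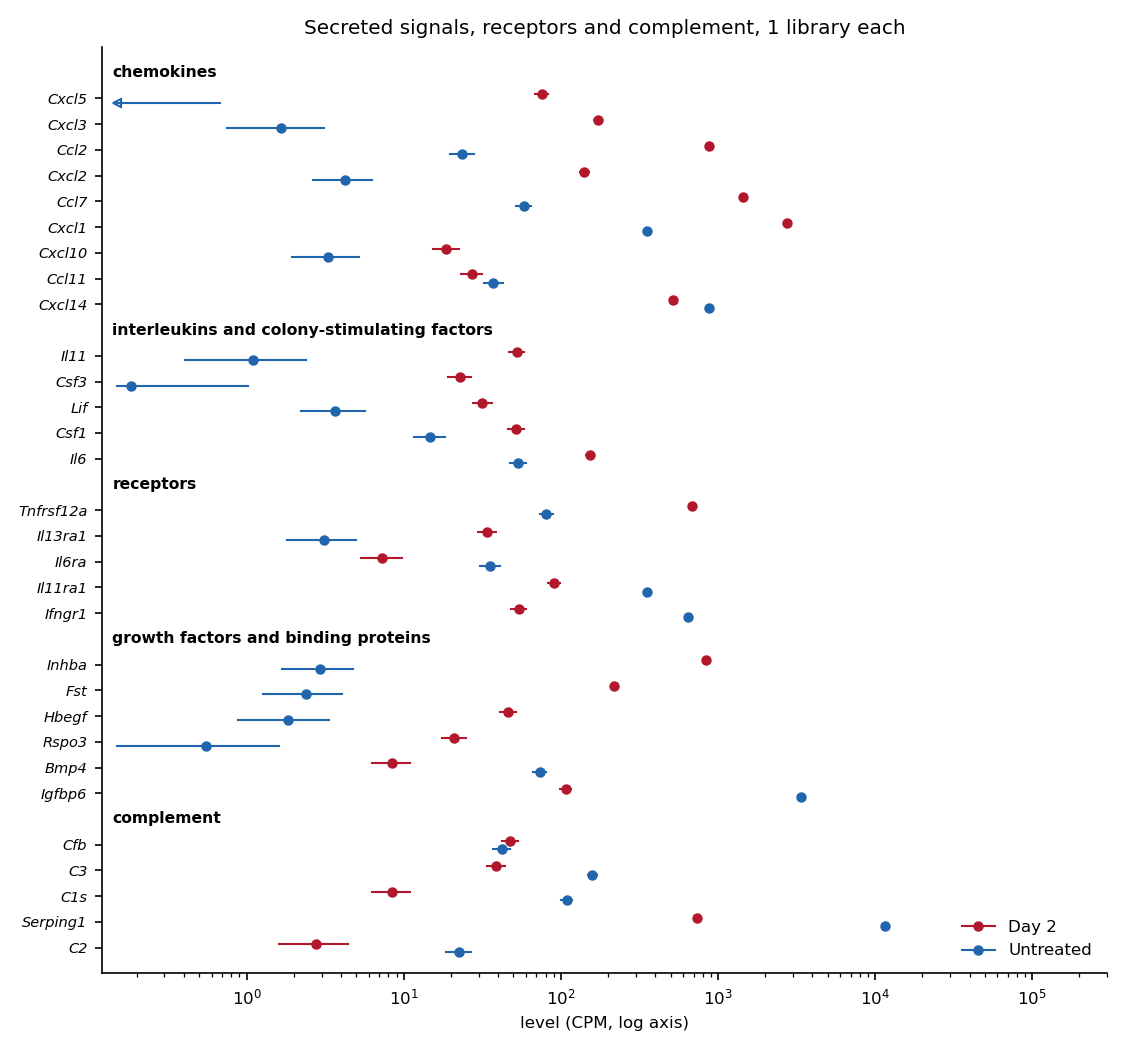
Levels (CPM, log axis) of selected ligands, receptors and complement genes in Day 2 cells (red) and untreated cells (blue), 1 library each, with exact 95% Poisson intervals; an open arrowhead marks no tag. The chemokines that rose and the interleukins lie to the right at Day 2, and Cxcl14 and Ccl11 to the left. The complement genes other than Cfb, and Ifngr1, Bmp4 and Igfbp6, also lie to the left.

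Genes of the NF-kB pathway and its feedback stood close to the median gene, unlike the chemokines. Of 14 measured members none rose and 1 fell, and their median was -0.09, which is above 0 with CPM as deposited and under median-ratio scaling. Nfkbia, the inhibitor that NF-kB itself induces, stood at 1055 CPM in Day 2 cells, against 686 CPM in untreated cells. Nfkbiz, a nuclear member of the same inhibitor family, fell to 18.1 CPM in Day 2 cells, against 52.8 CPM in untreated cells. Among 10 measured acute-phase genes, Mt2 and Saa3 rose and C3 and Lbp fell. Mt2, a metallothionein that binds zinc and copper, reached 8447 CPM in Day 2 cells, against 631 CPM in untreated cells, and was 8.49-fold higher (8.203 to 8.79). Saa3, serum amyloid A, is tag-sharing and stood at 305 CPM in Day 2 cells, against 20.3 CPM in untreated cells. Sod2, the tag-sharing mitochondrial superoxide dismutase, stood at 842 CPM in Day 2 cells, against 163 CPM in untreated cells, which is within 4-fold. The 6 measured prostanoid genes had no call either way, with a median of 0.70 that was below 0 without the filter on low values. Ptges, a prostaglandin E synthase, stood at 157 CPM in Day 2 cells, against 28.9 CPM in untreated cells. Ptgs2, the inducible cyclooxygenase, stood at 72.1 CPM in Day 2 cells, against 23.8 CPM in untreated cells.

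Complement genes fell almost throughout. Of 10 measured components and regulators 8 fell and none rose, with a median of -2.71. C1s, a protease of the first component, fell to 8.42 CPM in Day 2 cells, against 109 CPM in untreated cells. C2, the classical pathway component that C1s cleaves, fell to 2.75 CPM in Day 2 cells, against 22.5 CPM in untreated cells. Serping1, the inhibitor of C1 proteases, was abundant in untreated cells and was 24.9-fold lower (24.2 to 25.7). Only Cfb, factor B, stood near its untreated level, at 47.6 CPM in Day 2 cells, against 42.04 CPM in untreated cells, and Clu, clusterin, was within 4-fold. Interferon and antigen presentation genes had 4 of 20 members lower and none higher, with a median of -0.97: Ifi27l2a, the class I genes H2-D1 (tag-sharing) and H2-K1, and Irf1, an interferon regulatory factor. Without the filter on low values the median of this family was -0.11, and 16 of its 45 members with a tag lay above the median gene. Irf1 stood at 92.95 CPM in Day 2 cells, against 264 CPM in untreated cells. B2m, the light chain of class I molecules, stood at 278 CPM in Day 2 cells, against 542 CPM in untreated cells, and stayed within 4-fold.

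Among growth factors the activin chain Inhba and its antagonist Fst rose most. Inhba, which encodes the beta A chain of activin A, reached 846 CPM in Day 2 cells, against 2.92 CPM in untreated cells. Fst, follistatin, which binds and blocks activin, reached 219 CPM in Day 2 cells, against 2.38 CPM in untreated cells. Both the ligand and its antagonist were near 0 in untreated cells. Fstl3, a relative of follistatin, stood at 611 CPM in Day 2 cells, against 256 CPM in untreated cells, and did not pass 4-fold. Acvrl1, a type I receptor of the family, fell to 4.696 CPM in Day 2 cells, against 15.9 CPM in untreated cells. Of 17 measured TGF-beta genes 2 (11.8%) rose and 1 (5.88%) fell around a median of 0.14, against 7.03% and 7.42% of all measured genes. Ltbp2, a latent TGF-beta binding protein family member of microfibrils, was 4.97-fold higher (3.42 to 7.45), and Ltbp4 fell to 32.2 CPM in Day 2 cells, against 283 CPM in untreated cells. Smad7, the inhibitory SMAD, stood at 54.1 CPM in Day 2 cells, against 28.1 CPM in untreated cells. Tgfbr2, the type II receptor, stood at 34.01 CPM in Day 2 cells, against 40.9 CPM in untreated cells. Neither passed 4-fold.

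BMP genes had 3 falls and no rise among 11 measured. Bmp4 fell to 8.42 CPM in Day 2 cells, against 73.5 CPM in untreated cells, and was 13.8-fold lower (10.3 to 18.7). Nbl1, a secreted BMP antagonist, was 8.07-fold lower (7.52 to 8.67), and Id3, a transcription regulator that BMP signals induce, fell to 775 CPM in Day 2 cells, against 2376 CPM in untreated cells. Id1 stood at 74.98 CPM in Day 2 cells, against 28.5 CPM in untreated cells, on the other side of the median gene from Id3. Gdf15, a stress-induced relative, stood at 50.04 CPM in Day 2 cells, against 9.32 CPM in untreated cells, within 4-fold. The family median, -0.34, turns positive with CPM as deposited.

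Of the Wnt genes Rspo3, which enhances Wnt receptors, rose, with 130 tags in Day 2 cells against 3 in untreated cells and a ratio of 24.3 (8.15 to 119.6). Dkk3, a Dickkopf relative, fell to 24.8 CPM in Day 2 cells, against 104 CPM in untreated cells. The other 9 measured Wnt genes stayed within 4-fold. In the CCN family the secreted relatives Wisp1 and Wisp2 parted. Wisp1 rose to 65.1 CPM in Day 2 cells, against 3.29 CPM in untreated cells. Wisp2 fell to 29.1 CPM in Day 2 cells, against 158 CPM in untreated cells. Ctgf, a target of TGF-beta and YAP, stood at 631 CPM in Day 2 cells, against 345 CPM in untreated cells, near the median gene. Cyr61, another YAP target, fell to 2738 CPM in Day 2 cells, against 7107 CPM in untreated cells, with a centred difference of -2.03. Hbegf, an EGF receptor ligand, rose to 46.2 CPM in Day 2 cells, against 1.83 CPM in untreated cells, and was 16.01-fold higher (8.58 to 33.8).

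The PDGF, FGF and VEGF families had 4 falls and no rise among 17 measured genes. Fgfr4 fell to 0.8097 CPM in Day 2 cells, against 28.1 CPM in untreated cells. Fgfr3 fell to 2.43 CPM in Day 2 cells, against 49.2 CPM in untreated cells. Figf, the lymphatic growth factor VEGF-D, was 5.82-fold lower (5.11 to 6.64). Vegfa stood at 33.5 CPM in Day 2 cells, against 8.77 CPM in untreated cells, and the tag-sharing Pdgfra and Fgfr1 lay near the median gene. Of the IGF system 3 of 8 fell, all of them binding proteins or a protease: Igfbp6, Igfbp4 (tag-sharing) and Htra3. Igfbp6, which prefers IGF-II, fell to 108 CPM in Day 2 cells, against 3384 CPM in untreated cells, and was 49.6-fold lower (45.9 to 53.7). Igfbp3, the main binding protein of plasma, stood at 645 CPM in Day 2 cells, against 364 CPM in untreated cells. Igf1, which is tag-sharing, stood at 31.6 CPM in Day 2 cells, against 28.7 CPM in untreated cells. In the ERK feedback family Spred1 was 6.93-fold higher (3.85 to 13.7) and Dusp1, a phosphatase of MAP kinases, fell to 444 CPM in Day 2 cells, against 1619.5 CPM in untreated cells.

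Matrix genes did not move as one. The 6 measured fibrillar collagen genes had no call, with a median of 0.74 that was below 0 among genes of at least 50 CPM, and centred differences between -0.13 and 1.80. Col5a3 was the uppermost, at 19.6 CPM in Day 2 cells, against 2.74 CPM in untreated cells, and Col1a2 the lowest, at 76.8 CPM in Day 2 cells, against 52.8 CPM in untreated cells. Of the other collagens only Col13a1, a membrane-bound collagen, was called, at 11.2 CPM in Day 2 cells, against 87.6 CPM in untreated cells. Lox, which cross-links collagen and elastin, stood at 55.5 CPM in Day 2 cells, against 13.7 CPM in untreated cells, within 4-fold. Adamts14, a procollagen N-proteinase, rose to 72.4 CPM in Day 2 cells, against 9.87 CPM in untreated cells, while the 2 enhancers of the C-proteinase fell. Pcolce fell to 169 CPM in Day 2 cells, against 706 CPM in untreated cells. Pcolce2 fell to 119.8 CPM in Day 2 cells, against 2688 CPM in untreated cells. P4ha3, a tag-sharing prolyl hydroxylase chain, was 27.3-fold higher (12.4 to 74.9).

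Of 21 measured wound matrix genes 4 rose and 5 fell, with a median of -0.98 and 15 members below the median gene. Without the filter on low values the median was -0.03. The 12 members under the filter summed to 41.9 CPM in Day 2 cells and 13.7 CPM in untreated cells. Cthrc1, Spp1 and Tnc, which rose, were below 10 CPM in untreated cells and passed the filter on mean level through their Day 2 level. Cthrc1, a secreted protein of activated fibroblasts, stood at 129 CPM in Day 2 cells, against 1.28 CPM in untreated cells. Spp1, osteopontin, stood at 357 CPM in Day 2 cells, against 7.49 CPM in untreated cells. Tnc, tenascin C, stood at 147 CPM in Day 2 cells, against 2.74 CPM in untreated cells. Cilp, a tag-sharing cartilage matrix protein, rose too. On the other side Tnxb, the tenascin of resting connective tissue, fell to 13.4 CPM in Day 2 cells, against 129.6 CPM in untreated cells. Npnt, nephronectin, fell to 39.2 CPM in Day 2 cells, against 1095 CPM in untreated cells. Thus the 2 measured tenascins parted, with Tnc 34.01-fold higher and Tnxb 15.2-fold lower. Sparcl1, Srpx and Mfge8 fell, and Fn1, fibronectin, which is tag-sharing, stood at 45.7 CPM in Day 2 cells, against 42.96 CPM in untreated cells.

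Elastic fibre genes and small leucine-rich proteoglycans fell in part. Of 17 measured elastic fibre genes 4 fell, and Ltbp2 rose. Mfap4 fell to 148 CPM in Day 2 cells, against 4106 CPM in untreated cells. Efemp1, fibulin 3, fell to 11.5 CPM in Day 2 cells, against 392 CPM in untreated cells. Fbln5, fibulin 5, fell to 1.46 CPM in Day 2 cells, against 65.4 CPM in untreated cells. Relative to the median gene Mfap4 was 43.7-fold lower, Efemp1 53.8-fold lower and Fbln5 70.8-fold lower. Eln, elastin itself, stayed within 4-fold, at 139 CPM in Day 2 cells, against 251 CPM in untreated cells. Fbn1, the tag-sharing fibrillin 1, stood at 25.3 CPM in Day 2 cells, against 9.14 CPM in untreated cells. Of 8 proteoglycans 5 fell, with a median of -2.88: Ogn, Prelp, Podn, Fmod and the tag-sharing Dcn. Ogn, osteoglycin, fell to 19.3 CPM in Day 2 cells, against 825 CPM in untreated cells. Prelp, which anchors matrix to basement membranes, fell to 29.5 CPM in Day 2 cells, against 469.6 CPM in untreated cells. Lum, lumican, stood at 28.8 CPM in Day 2 cells, against 21.8 CPM in untreated cells. Cd44, the hyaluronan receptor, rose to 57.97 CPM in Day 2 cells, against 6.03 CPM in untreated cells, and was 6.095-fold higher (4.26 to 8.99). Has1, a hyaluronan synthase, stood at 287 CPM in Day 2 cells, against 187 CPM in untreated cells.

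Metalloproteases and their inhibitors held a single large rise beside several falls. Timp1, an inhibitor of matrix metalloproteases, rose to 8712 CPM in Day 2 cells, against 111 CPM in untreated cells, and was 49.7-fold higher (45.9 to 53.9). Timp3 fell to 117 CPM in Day 2 cells, against 786 CPM in untreated cells. Timp2 fell to 139 CPM in Day 2 cells, against 359 CPM in untreated cells, with a centred difference of -2.02. The 3 measured inhibitors thus did not move together. Mmp2, a gelatinase of resting fibroblasts, fell to 67.2 CPM in Day 2 cells, against 363 CPM in untreated cells, and Mmp11 and Adamts10 fell as well. Mmp3, stromelysin, stood at 420.2 CPM in Day 2 cells, against 614 CPM in untreated cells, within 4-fold. Of 13 measured genes of this family 1 rose and 5 fell.

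The plasminogen and coagulation family held 4 rises and 3 falls among 15 measured genes. Plaur, the urokinase receptor, rose to 51.01 CPM in Day 2 cells, against 3.47 CPM in untreated cells, and was 9.32-fold higher (5.87 to 15.7). Procr, the protein C receptor, was 10.4-fold higher (4.92 to 26.5). Tfpi2, a Kunitz protease inhibitor, rose to 22.5 CPM in Day 2 cells, against 2.38 CPM in untreated cells. F2r, the thrombin receptor PAR1, fell to 25.4 CPM in Day 2 cells, against 201 CPM in untreated cells. Thbd, thrombomodulin, fell to 33.2 CPM in Day 2 cells, against 88.3 CPM in untreated cells. The receptor for urokinase and the receptor for thrombin thus lay on opposite sides. Anxa2, which binds plasminogen at the cell surface, stood at 3513 CPM in Day 2 cells, against 647 CPM in untreated cells, within 4-fold.

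The AP-1 motif TGANTCA was searched in the promoters of these genes. It was present in 6 of 10 measured members with a promoter entry, namely Anxa2, F2r, F3, Plaur, Procr and Tfpi2, against 6.17% of measured genes and 7.81% of all promoter entries. The 6 include genes that rose, a gene that fell and genes that did neither. Capitals mark the motif in the 150 bases before the start of Plaur, which rose, and of the abundant Anxa2.
Plaur (chr7:24462333-24462482, plus strand): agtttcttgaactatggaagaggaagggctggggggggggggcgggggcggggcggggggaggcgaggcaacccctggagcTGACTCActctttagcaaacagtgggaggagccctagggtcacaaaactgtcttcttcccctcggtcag
Anxa2 (chr9:69453533-69453682, plus strand): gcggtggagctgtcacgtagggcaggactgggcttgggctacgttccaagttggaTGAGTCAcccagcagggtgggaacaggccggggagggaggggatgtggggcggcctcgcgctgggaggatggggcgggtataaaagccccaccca
Among metalloprotease genes the motif was present in 1 of 10, Mmp3.

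Adhesion and surface genes held both rises and falls. Of 19 integrin and focal adhesion genes 2 (10.5%) rose and 3 (15.8%) fell, against 7.03% and 7.42% of all measured genes. The integrin median of -0.53 turns positive with CPM as deposited and is 0.0000 without the filter. Of 17 surface adhesion genes 2 (11.8%) rose and 4 (23.5%) fell, with a median of -0.83. Itga5, the fibronectin receptor chain, rose to 96.2 CPM in Day 2 cells, against 3.11 CPM in untreated cells, and was 19.6-fold higher (12.2 to 33.9). Sdc1, a cell surface proteoglycan, rose to 59.3 CPM in Day 2 cells, against 1.46 CPM in untreated cells, and was 25.7-fold higher (12.9 to 59.99), while its relatives Sdc2 and the tag-sharing Sdc4 stayed within 4-fold. Pdpn, podoplanin, rose to 463 CPM in Day 2 cells, against 23.6 CPM in untreated cells, and was 12.4-fold higher (10.4 to 14.96). Cd34, Gpc3, Cd82 and Ly6c1 fell. Cd34, a sialomucin of resting fibroblasts and progenitors, fell to 5.51 CPM in Day 2 cells, against 84.3 CPM in untreated cells. Cd81, a tetraspanin that binds integrins, fell to 129.9 CPM in Day 2 cells, against 962 CPM in untreated cells. Gpc3, a glypican, was 18.98-fold lower (16.3 to 22.2). S100a4, which binds calcium and is known from motile cells, rose to 177 CPM in Day 2 cells, against 17.4 CPM in untreated cells.

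Most cytoskeletal genes stayed within 4-fold. Of 26 contractile genes 3 rose and 1 fell, against 7.03% and 7.42% of all measured genes, and without tag-sharing genes 1 rose and 1 fell of 21. Of 31 actin turnover genes 4 rose and 1 fell, or 12.9% and 3.23%. Of 13 tubulin, vimentin and microtubule genes 3 rose and none fell, and every one lay above the median gene. Acta2, smooth muscle actin, is tag-sharing and stood at 137 CPM in Day 2 cells, against 8.77 CPM in untreated cells. Tpm2, a tropomyosin, had 128 tags in Day 2 cells against 2 in untreated cells, with a ratio of 35.96 (9.75 to 300.1). Tagln, another contractile marker, stood at 71.6 CPM in Day 2 cells, against 25.4 CPM in untreated cells. Myl9, a myosin light chain, stood at 64.5 CPM in Day 2 cells, against 44.97 CPM in untreated cells. Acta2 and Tpm2 stood apart from most of the contractile genes. The contractile median, 0.60, turned to -0.08 among genes of at least 50 CPM.

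Actin turnover genes held both a group that rose and the largest single loss of tags. Pfn1, profilin, rose to 14311 CPM in Day 2 cells, against 1283 CPM in untreated cells, and was 7.07-fold higher (6.904 to 7.25). Arpc1b, a subunit of the Arp2/3 complex that branches actin, rose to 1713 CPM in Day 2 cells, against 256 CPM in untreated cells. Fscn1, fascin, which bundles actin, rose to 100.2 CPM in Day 2 cells, against 7.86 CPM in untreated cells. Cfl1, cofilin, is tag-sharing and was 5.204-fold higher (5.03 to 5.38). Gsn, gelsolin, which severs actin filaments, was 121-fold lower (119 to 123). Tubb5 and Stmn1, a tubulin and a microtubule destabiliser of dividing cells, were 9.17-fold higher (8.18 to 10.3) and 5.496-fold higher (4.29 to 7.15). Vim, vimentin, stood at 10585 CPM in Day 2 cells, against 1747 CPM in untreated cells, just under 4-fold, and Tubb3 was 8.08-fold higher (3.96 to 19.2). Of the 5 measured septins Sept4 fell to 69.6 CPM in Day 2 cells, against 5693 CPM in untreated cells. Sept9 rose to 24.6 CPM in Day 2 cells, against 2.56 CPM in untreated cells.

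Genes that mark alveolar fibroblasts had the lowest median of all families. Of the 28 measured of 34 in the table, 23 fell and none rose, with a median of -4.81. Including the members under the filter, 34 of 34 members with a tag lay below the median gene. Tcf21, a transcription factor of lung mesenchyme, fell to 49.7 CPM in Day 2 cells, against 1230.2 CPM in untreated cells, and was 39.02-fold lower (34.8 to 43.9). G0s2, an inhibitor of fat breakdown found in lipid-storing fibroblasts, fell to 24.3 CPM in Day 2 cells, against 1077 CPM in untreated cells. Inmt, a methyltransferase, fell to 40.2 CPM in Day 2 cells, against 4343 CPM in untreated cells. Ces1d, a carboxylesterase, fell to 7.45 CPM in Day 2 cells, against 344 CPM in untreated cells. The 5 members within 4-fold included the tag-sharing Pdgfra, Plin2, which coats lipid droplets (62.99 CPM in Day 2 cells and 53.01 CPM in untreated cells), and Wnt2 (28.8 CPM in Day 2 cells and 27.1 CPM in untreated cells).

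Adventitial fibroblast genes fell in part. Of the 22 measured of 33 in the table, 12 fell and 1, the tag-sharing retinoic acid enzyme Aldh1a3, rose, with a median of -2.16. Clec3b, tetranectin, fell to 11.7 CPM in Day 2 cells, against 719 CPM in untreated cells. The tag-sharing Pi16 fell to 21.1 CPM in Day 2 cells, against 1002 CPM in untreated cells. Has1, Lum, Gfpt2, Ptgis and Cd248 stayed within 2-fold of the median gene, with Gfpt2 at 99.8 CPM in Day 2 cells, against 89.9 CPM in untreated cells, and Ptgis, prostacyclin synthase, at 173 CPM in Day 2 cells, against 162 CPM in untreated cells. In the genes shared by both fibroblast kinds, S100a4 rose, Dcn and Pcolce fell, and the other 16 of 19 stayed within 4-fold; Mgp, a calcification inhibitor, was high in both, at 25094 CPM in Day 2 cells, against 35594 CPM in untreated cells.

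**Figure D4:**
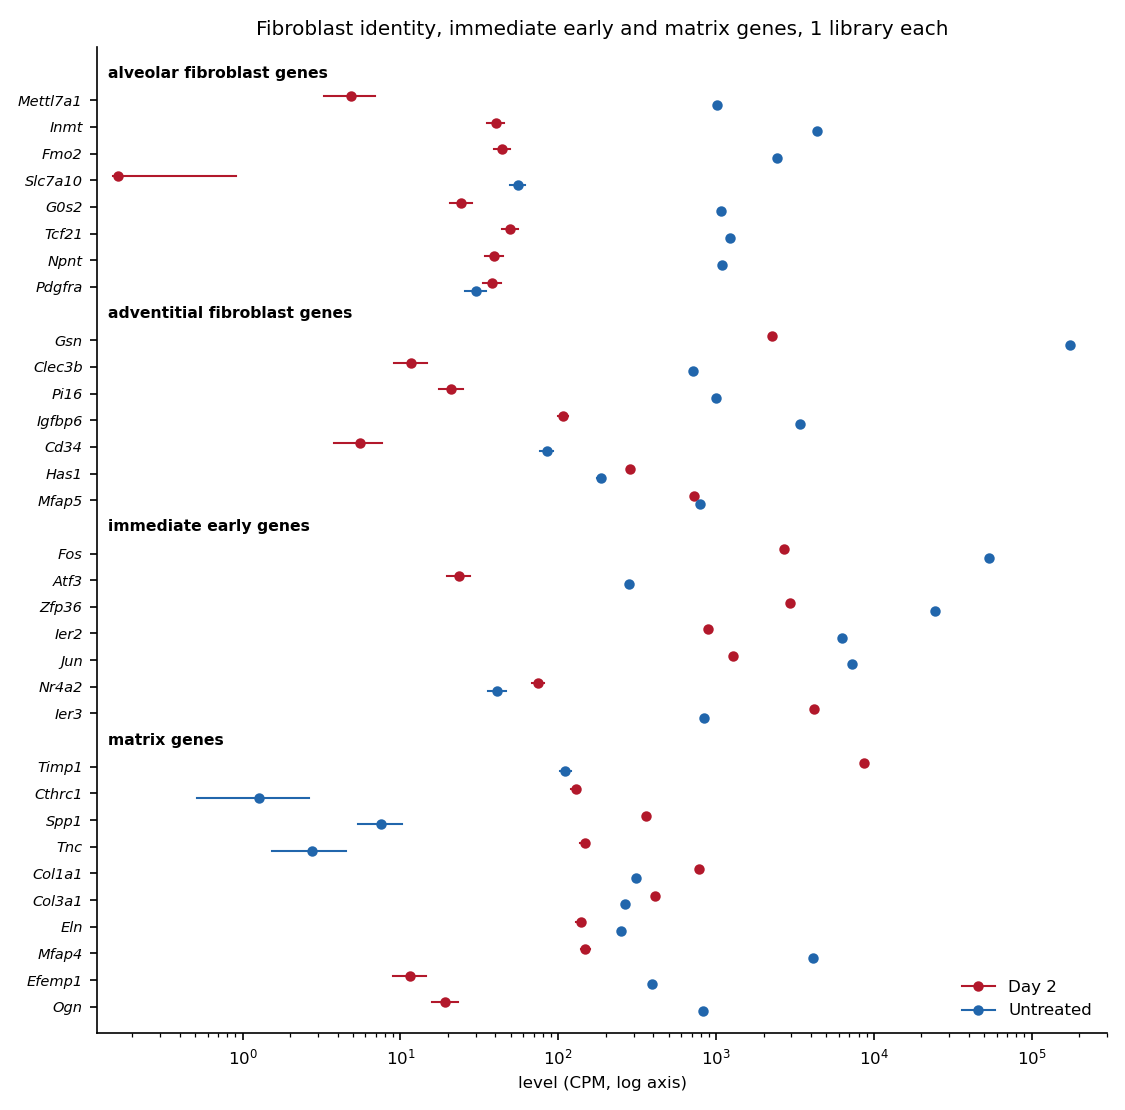
Levels (CPM, log axis) of fibroblast identity genes, immediate early genes and matrix genes in Day 2 cells (red) and untreated cells (blue), 1 library each, with exact 95% Poisson intervals. The identity and most immediate early genes lie to the left at Day 2, whereas Pdgfra, Has1, Nr4a2 and the collagens lie close to or right of their untreated level.

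Enzyme and transporter families shared part of their fallen members with the alveolar list. Of 25 xenobiotic and retinoid enzymes 14 fell and 1 rose, with a median of -2.56; Fmo2, Ces1d, Rarres2, Selenbp1 and Adh1 stand in both lists. Adh1, alcohol dehydrogenase, fell to 80.6 CPM in Day 2 cells, against 1535 CPM in untreated cells. Gstm1, a glutathione transferase, fell to 68.5 CPM in Day 2 cells, against 1418 CPM in untreated cells. Aldh2, the mitochondrial aldehyde dehydrogenase, fell to 36.3 CPM in Day 2 cells, against 367 CPM in untreated cells. The enzyme that rose was Rdh10, which makes retinal from retinol, at 28.99 CPM in Day 2 cells, against 1.28 CPM in untreated cells. Among 14 lipid genes Apoe, G0s2, Nr1h3 and Apod fell and none rose. Nr1h3, the oxysterol receptor LXR alpha, fell to 11.3 CPM in Day 2 cells, against 52.1 CPM in untreated cells. Of 18 solute carriers 6 fell and 1 rose, and of 18 ion channel and pump genes 5 fell and 2 rose; Slc7a10, Slc38a5 and Scn7a stand in the alveolar list too, as does G0s2. Slc7a10 and Slc38a5, carriers of amino acids, fell, Slc7a10 to 0.162 CPM in Day 2 cells, against 55.4 CPM in untreated cells, and Slc38a5 to 3.24 CPM in Day 2 cells, against 74.4 CPM in untreated cells. Scn7a, a sodium channel, fell to 7.61 CPM in Day 2 cells, against 201 CPM in untreated cells. Clic1, an intracellular chloride channel protein, rose to 757 CPM in Day 2 cells, against 79.3 CPM in untreated cells.

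Transcription factors of lineage and mesenchymal transition had 4 falls, among them Tcf21 of the alveolar list, and 1 rise among 27 measured, and 22 stayed within 4-fold. Runx1, which also acts in blood formation, rose to 28.8 CPM in Day 2 cells, against 3.47 CPM in untreated cells, and was 5.26-fold higher (3.27 to 8.95). Sox9, with 39.4 CPM in Day 2 cells, against 5.48 CPM in untreated cells, lay just under the 4-fold line by its centred difference. Snai2 fell to 2.75 CPM in Day 2 cells, against 21.8 CPM in untreated cells, and was 12.5-fold lower (7.46 to 22.1). Its relative Snai1 stood at 74.8 CPM in Day 2 cells, against 23.6 CPM in untreated cells, on the other side of the median gene. Meox2, a homeobox factor of mesoderm, was 9.396-fold lower (6.76 to 13.3), and Nfib fell to 32.4 CPM in Day 2 cells, against 85.7 CPM in untreated cells. Tbx4 and Tbx5, which pattern the lung mesenchyme, stayed within 4-fold, at 42.1 CPM in Day 2 cells and 93.96 CPM in untreated cells for Tbx4.

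Immediate early genes, which are switched on within minutes by growth factors, stress or the handling of tissue, had some of the most abundant transcripts of untreated cells, and part of the family fell. Of 11 measured AP-1 genes 5 fell, 6 stayed within 4-fold and none rose, with a median of -1.77. Of 33 further immediate early genes 11 fell, 22 stayed within 4-fold and none rose, with a median of -1.10; 13 of the 33 had a higher CPM in Day 2 cells. Fos fell to 2712 CPM in Day 2 cells, against 53786 CPM in untreated cells, and was 31.3-fold lower (30.8 to 31.8); Jun fell to 1281 CPM in Day 2 cells, against 7314 CPM in untreated cells. Socs3, which restrains gp130 signalling, fell to 101 CPM in Day 2 cells, against 661 CPM in untreated cells. Zfp36, which speeds the decay of cytokine mRNAs, fell to 2942 CPM in Day 2 cells, against 24493 CPM in untreated cells. Among the members within 4-fold, Fosl2, a tag-sharing Fos relative, stood at 40.8 CPM in Day 2 cells, against 7.49 CPM in untreated cells. Ier3, a survival gene of the stress response, stood at 4178 CPM in Day 2 cells, against 843 CPM in untreated cells. Nr4a2, an orphan nuclear receptor, stood at 74.5 CPM in Day 2 cells, against 41.1 CPM in untreated cells.

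The CArG box, which serum response factor binds, was searched in these promoters because it is known from Fos, Egr1 and Zfp36. Within the promoter entries it was present in 2 of 28 Egr, Klf and related genes (Egr2 and Zfp36) and in 0 of 11 AP-1 genes, against 1.92% of measured genes and 1.63% of all promoter entries. Among contractile genes, which were searched too, the box was present in 3 of 23, none of which rose or fell. Egr2 stood at 28.2 CPM in Day 2 cells, against 26.1 CPM in untreated cells, and Zfp36 fell. The window of Zfp36 is given with the box in capitals.
Zfp36 (chr7:28379229-28379378, minus strand): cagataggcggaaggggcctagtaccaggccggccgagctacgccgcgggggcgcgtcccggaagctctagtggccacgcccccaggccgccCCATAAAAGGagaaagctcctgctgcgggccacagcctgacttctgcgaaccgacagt
The short window leaves out sites farther from the start.

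Glucocorticoid-related genes, which share the fallen Zfp36, Dusp1 and Klf15 with the immediate early list, fell in 8 of 16 cases. Hsd11b1, which regenerates active glucocorticoid, fell to 145 CPM in Day 2 cells, against 2226 CPM in untreated cells, and was 24.2-fold lower (22.6 to 25.97). Tsc22d3, the glucocorticoid-induced leucine zipper, fell to 53.1 CPM in Day 2 cells, against 569.6 CPM in untreated cells. Klf15, a transcription factor that glucocorticoid induces, fell to 1.94 CPM in Day 2 cells, against 25.6 CPM in untreated cells. Angptl4, Sgk1 and the tag-sharing Fkbp5, which also respond to glucocorticoid, stayed within 4-fold and above the median gene, with Fkbp5 at 17.8 CPM in Day 2 cells, against 5.301 CPM in untreated cells. The only member that rose was Mt2, which metals induce too.

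Genes of the cell cycle rose. Of the 18 DNA replication genes measured of 58 in the table, 12 rose and none fell, with a median of 2.31. Of the 21 mitosis genes measured of 84 in the table, 15 rose and none fell, with a median of 2.88. Most members of both lists were under the filter. Among all members that had a tag, 56 of 57 replication genes and 80 of 83 mitosis genes lay above the median gene. The 63 mitosis genes under the filter summed to 325 CPM in Day 2 cells and 15.7 CPM in untreated cells.

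Within replication, Rrm2, the ribonucleotide reductase chain that makes DNA precursors, had 237 tags in Day 2 cells against 4 in untreated cells, and was 33.3-fold higher (12.8 to 123). Dut, which keeps uracil out of DNA, rose to 160.5 CPM in Day 2 cells, against 9.32 CPM in untreated cells, and was 10.9-fold higher (8.24 to 14.8). Pcna, the sliding clamp, rose to 49.7 CPM in Day 2 cells, against 5.12 CPM in untreated cells. Gins2, a helicase subunit, had 147 tags in Day 2 cells and none in untreated cells, and was at least 27.5-fold higher. Mcm2 and Mcm6, helicase subunits that are tag-sharing, rose too, as did Mcm5 and Mcm7, which are not. In mitosis Birc5, survivin, rose to 49.7 CPM in Day 2 cells, against 1.46 CPM in untreated cells. Plk1, a mitotic kinase, rose to 34.8 CPM in Day 2 cells, against 0.731 CPM in untreated cells. Spc24, a kinetochore protein, rose to 61.4 CPM in Day 2 cells, against 1.097 CPM in untreated cells. Ran, the GTPase that drives nuclear transport and spindle assembly, was abundant, at 2064 CPM in Day 2 cells, against 65.99 CPM in untreated cells, and was 19.8-fold higher (17.9 to 22.1). The exception was Pttg1, securin, at 15.1 CPM in Day 2 cells, against 34.4 CPM in untreated cells, with a centred difference of -1.80.

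Promoters of 3 of these genes with a match in the window are given because their motifs are those of growth-controlled transcription. Capitals mark the E2F motifs TTTCCCGC or TTTGGCGC in Mcm5 and the CHR element TTTGAA, which is bound in many mitotic promoters, in Ube2c and Cks1b.
Mcm5 (chr8:75109359-75109508, plus strand): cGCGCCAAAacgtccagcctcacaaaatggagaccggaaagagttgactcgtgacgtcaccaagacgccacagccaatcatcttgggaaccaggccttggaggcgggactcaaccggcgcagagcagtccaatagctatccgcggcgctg
Ube2c (chr2:164769779-164769928, plus strand): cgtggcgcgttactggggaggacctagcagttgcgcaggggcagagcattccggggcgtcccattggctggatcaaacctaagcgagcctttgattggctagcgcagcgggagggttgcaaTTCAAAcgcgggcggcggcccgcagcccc
Cks1b (chr3:89418292-89418441, minus strand): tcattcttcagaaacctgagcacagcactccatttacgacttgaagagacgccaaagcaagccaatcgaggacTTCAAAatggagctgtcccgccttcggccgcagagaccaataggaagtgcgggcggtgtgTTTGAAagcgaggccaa
The E2F motifs were present in 4 of 14 replication genes with an entry (Dnmt1, Mcm5, Mcm6 and Mcm7), against 3.32% of measured genes and 1.56% of all promoter entries. The CHR letters were present in 9 of 18 mitosis genes, against 13.1% of measured genes and 17.9% of all entries. The letters CCAAT were present in 13 of 18, against 42.5% of measured genes and 37.4% of all entries. These counts cover the whole promoter entry. In the 150 bases before the start, Dnmt1 and Mcm7 had no E2F match, and Plk1, 1 of the 9 genes with the CHR letters, had no CHR match. Ube2c, a ubiquitin enzyme of mitotic exit, had 205 tags in Day 2 cells and 2 in untreated cells, and Cks1b, a subunit of cyclin-dependent kinases, had 256 tags in Day 2 cells and 5 in untreated cells.

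The G1 regulators held 2 rises (8.7%) and 6 falls (26.1%) among 23, against 7.03% and 7.42% of all measured genes. Their median was -0.08, which turns positive with CPM as deposited. Ccnd1, cyclin D1, which starts the cycle, rose to 174 CPM in Day 2 cells, against 10.6 CPM in untreated cells, and was 10.4-fold higher (7.98 to 13.8). Plk2, a kinase induced early in G1, was 7.16-fold higher (6.62 to 7.74). The members that fell are known as brakes or markers of quiescence. Cdkn1c, the inhibitor p57, fell to 5.18 CPM in Day 2 cells, against 38.6 CPM in untreated cells. Ccng2, a cyclin of resting cells, fell to 2.59 CPM in Day 2 cells, against 26.7 CPM in untreated cells. Gas6 and Gas1, named for growth arrest, fell as well. Gas6 fell to 39.4 CPM in Day 2 cells, against 387 CPM in untreated cells, and Gas1 to 9.39 CPM in Day 2 cells, against 48.8 CPM in untreated cells. Btg2 (tag-sharing) and Tob1, which restrain proliferation, fell too. Cdkn1a, the inhibitor p21 and a p53 target, stood at 1846 CPM in Day 2 cells, against 395 CPM in untreated cells, on the higher side but within 4-fold. Among growth-linked chromatin genes Hmga2 had 165 tags in Day 2 cells and none in untreated cells, and was at least 30.9-fold higher. Hmgn2 and Hmgb2 rose as well, and Myc stood at 158 CPM in Day 2 cells, against 45.3 CPM in untreated cells, within 4-fold. Of the 5 measured histone genes, Hist1h2ao rose to 154 CPM in Day 2 cells, against 1.46 CPM in untreated cells, and the others stayed within 4-fold. Histone and ribosomal genes have near-identical copies, so the counts of their single members are uncertain.

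**Figure D5:**
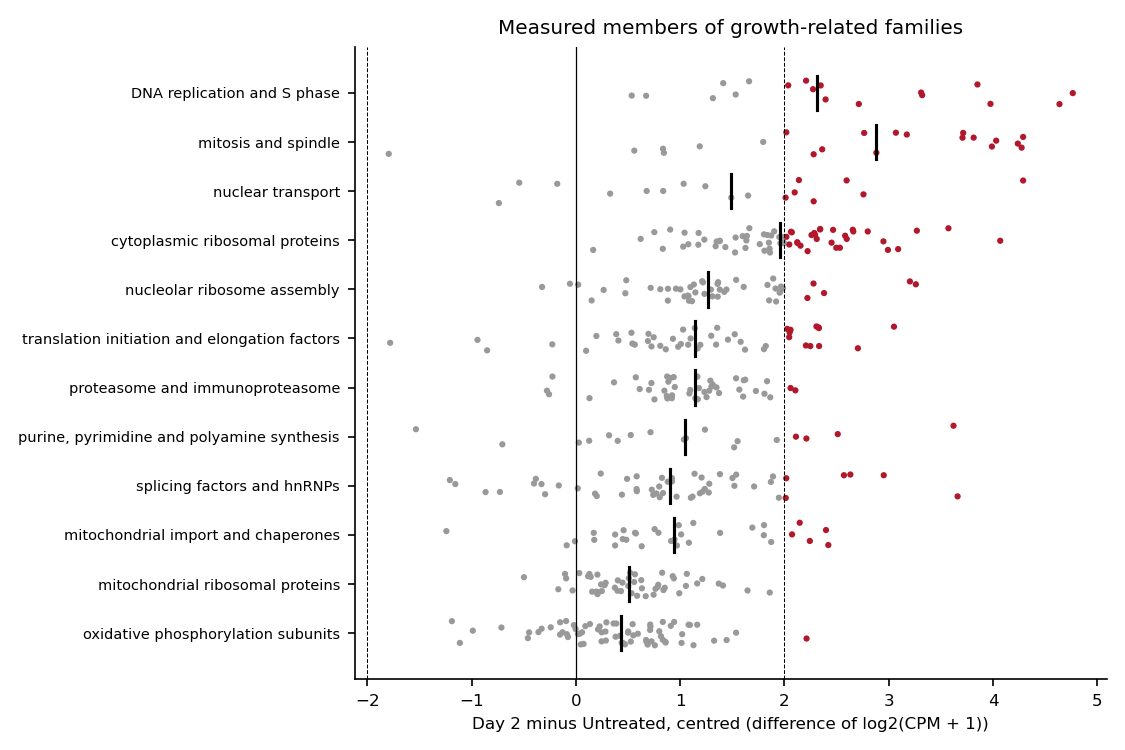
Centred differences, Day 2 minus Untreated, of every measured member of 12 growth-related families, with the family median as a black bar and members at least 4-fold higher in red. Replication and mitosis genes lie mostly beyond the 4-fold line, ribosomal proteins around it, and mitochondrial ribosomal proteins and oxidative phosphorylation subunits nearer to 0.

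Genes of protein synthesis stood above the median gene, those of cytoplasmic ribosomes furthest. Of 66 cytoplasmic ribosomal protein genes 29 rose, none fell, and the median was 1.96; all 66 lay above the median gene. Rpl38 was 16.9-fold higher (15.6 to 18.5). The 52 mitochondrial ribosomal protein genes had no call and a median of 0.51. Nucleolar assembly genes had 5 rises among 48 (10.4%, against 7.03% of all measured genes) and a median of 1.26. Ncl, nucleolin, rose to 142 CPM in Day 2 cells, against 16.5 CPM in untreated cells. Ddx21, a nucleolar helicase, rose to 52.8 CPM in Day 2 cells, against 6.03 CPM in untreated cells. Gar1, a part of the pseudouridylation complex, rose to 111 CPM in Day 2 cells, against 14.3 CPM in untreated cells; the other 2, Nol9 and Nol11, are tag-sharing.

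Translation factors rose in 12 of 47 cases with none lower, and their median was 1.14. Eif5a, the factor that carries hypusine, rose to 4992 CPM in Day 2 cells, against 381 CPM in untreated cells, and was 8.303-fold higher (7.94 to 8.68). Pabpc1, the poly(A)-binding protein, was 6.62-fold higher (5.89 to 7.46), and Eef1g, an elongation factor chain, 5.07-fold higher (4.58 to 5.63). The 16 aminoacyl-tRNA synthetases had no call, but 14 of them lay above the median gene, with a median of 0.92. Of the serine pathway, Phgdh, its first enzyme, rose to 87.1 CPM in Day 2 cells, against 9.69 CPM in untreated cells. Psat1, its second, rose to 29.96 CPM in Day 2 cells, against 1.46 CPM in untreated cells. Mat2a, which makes S-adenosylmethionine, fell to 57.001 CPM in Day 2 cells, against 493 CPM in untreated cells, and was 13.6-fold lower (12.2 to 15.3).

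Nucleotide and polyamine synthesis rose in 4 of 18 genes. Odc1, the rate-limiting enzyme of polyamine synthesis, rose to 884 CPM in Day 2 cells, against 97.4 CPM in untreated cells, and was 5.75-fold higher (5.26 to 6.298). Nme1 (tag-sharing) and Nme2, nucleoside diphosphate kinases, and Aprt, of purine salvage, were the others. Nuclear transport had 7 rises among 17 and a median of 1.49; beside Ran these were its exchange factor Rcc1, its binding protein Ranbp1, the importin Ipo5, the mRNA export adaptor Thoc4 and the tag-sharing Xpo5 and Nutf2. Ranbp1 rose to 348 CPM in Day 2 cells, against 44.6 CPM in untreated cells. Splicing genes had 6 rises among 52, or 11.5%, against 7.03% of all measured genes. Snrpe, a core spliceosome protein, was 8.12-fold higher (6.64 to 10.02), and Hnrnpa1 6.705-fold higher (5.15 to 8.88). Of 45 proteasome genes 2 (4.44%) rose, Psma6 and Psma7, the latter to 3819 CPM in Day 2 cells, against 562 CPM in untreated cells. The family median was 1.14, and 42 of the genes lay above the median gene. Those below it were the immunoproteasome subunits Psmb8 and Psmb10 and the activator subunit Psme1.

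Energy genes mostly stayed within 4-fold. Of 70 oxidative phosphorylation genes only Cycs, cytochrome c, was called, at 721 CPM in Day 2 cells, against 97.8 CPM in untreated cells, and the median was 0.43. Among import genes of mitochondria 5 of 33 rose, among them Timm8a1, Timm10 and Tomm20 and the ADP/ATP carrier Slc25a5, at 1103 CPM in Day 2 cells, against 132 CPM in untreated cells. In the TCA family the only called gene was the tag-sharing Ogdh, at 8589.7 CPM in Day 2 cells, against 289.7 CPM in untreated cells. In glycolysis no gene passed 4-fold on the higher side. Pkm2, a pyruvate kinase gene counted here as a whole and not by transcript form, stood at 313 CPM in Day 2 cells, against 48.99 CPM in untreated cells. Ldha, which makes lactate, stood at 1261 CPM in Day 2 cells, against 226 CPM in untreated cells. Bnip3, a mitophagy gene of hypoxia, and Ldhb fell, the first to 14.7 CPM in Day 2 cells, against 61.4 CPM in untreated cells. Sterol genes had a single call, Fads1, a fatty acid desaturase, at 7.93 CPM in Day 2 cells, against 21.8 CPM in untreated cells.

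Of 30 redox, metallothionein and iron genes 3 (10%) rose and 5 (16.7%) fell, against 7.03% and 7.42% of all measured genes. Txn1, thioredoxin, rose to 2153 CPM in Day 2 cells, against 169 CPM in untreated cells, and was 8.06-fold higher (7.54 to 8.62), and Mt2 rose with it. Among the secreted members Gpx3 fell, as given above. Sod3, the superoxide dismutase of the matrix, fell to 2925 CPM in Day 2 cells, against 42518 CPM in untreated cells. Sepp1, the selenium carrier, fell to 12.95 CPM in Day 2 cells, against 411 CPM in untreated cells. Txnip, the inhibitor of thioredoxin, fell to 11.7 CPM in Day 2 cells, against 82.8 CPM in untreated cells. The centred difference was 3.0 for thioredoxin and -3.38 for its inhibitor. Hmox1, heme oxygenase, stood at 73.4 CPM in Day 2 cells, against 14.1 CPM in untreated cells, and the ferritin chain Fth1 at 33592 CPM in Day 2 cells, against 29908 CPM in untreated cells; both stayed within 4-fold.

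Few chaperone genes passed 4-fold, against 7.03% and 7.42% of all measured genes: of 34 cytosolic chaperone genes 1 (2.94%) rose and 2 (5.88%) fell, and of 43 genes of the endoplasmic reticulum 2 (4.65%) rose and 4 (9.3%) fell. In the cytosol the 8 measured subunits of the TRiC chaperonin, which folds actin and tubulin, were all above the median gene; Cct3 (tag-sharing) passed 4-fold and Cct8 stood at 271 CPM in Day 2 cells, against 43.9 CPM in untreated cells. Of the heat shock genes Dnajb1 and Dnajb4 fell, Dnajb1 to 126 CPM in Day 2 cells, against 652 CPM in untreated cells, while the tag-sharing Hspa1a and Hspa1b and the constitutive Hspa8 stayed within 4-fold, Hspa8 at 1970.4 CPM in Day 2 cells, against 3805 CPM in untreated cells. In the endoplasmic reticulum Edem1, which sorts misfolded proteins for degradation, was 5.82-fold higher (4.18 to 8.31), and the tag-sharing Ssr1 rose too, whereas Herpud1, Xbp1, Dnajb9 and Hspa5, targets of the unfolded protein response, fell. Herpud1 fell to 125 CPM in Day 2 cells, against 808 CPM in untreated cells. Hspa5, the main chaperone there, fell to 1219.8 CPM in Day 2 cells, against 3149 CPM in untreated cells, with a centred difference of -2.02. Vesicle transport genes between the reticulum and the Golgi had 2 rises among 40, or 5%. Lysosomal genes had 2 rises (4.65%) and 5 falls (11.6%) among 43, against the same 7.03% and 7.42%. Ctsc, cathepsin C, which activates granule proteases, rose to 93.9 CPM in Day 2 cells, against 12.1 CPM in untreated cells. Cd63, a tetraspanin of lysosomes and exosomes, rose to 15041 CPM in Day 2 cells, against 2314 CPM in untreated cells. Cst3, cystatin C, the inhibitor of cathepsins, fell to 396 CPM in Day 2 cells, against 4459 CPM in untreated cells.

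Many called genes stood in none of the 76 families: 133 of the higher and 154 of the lower genes. The following were named after their values were seen. Prg4, lubricin of joints, rose to 79.8 CPM in Day 2 cells, against 0.914 CPM in untreated cells. Lgals1, galectin 1, rose to 13387 CPM in Day 2 cells, against 1407 CPM in untreated cells. Mif, a macrophage-acting cytokine, rose to 1531 CPM in Day 2 cells, against 119 CPM in untreated cells. Lrat, the tag-sharing enzyme that stores retinol as ester, fell to 1.295 CPM in Day 2 cells, against 53.9 CPM in untreated cells. Spon2, a secreted spondin, fell to 45.02 CPM in Day 2 cells, against 532 CPM in untreated cells. Dpt, dermatopontin, fell to 57.8 CPM in Day 2 cells, against 439.98 CPM in untreated cells. Fhl1, a LIM domain protein, fell to 37.9 CPM in Day 2 cells, against 1090.0 CPM in untreated cells. Its relative Fhl2 rose to 75.1 CPM in Day 2 cells, against 4.94 CPM in untreated cells. Luc7l2, at 34477 CPM in Day 2 cells, against 1547 CPM in untreated cells, Oip5, at 1843 CPM in Day 2 cells, against 76.4 CPM in untreated cells, and Nphs1, at 1726 CPM in Day 2 cells, against 90.8 CPM in untreated cells, are tag-sharing. Of the higher genes 38, and of the lower ones 15, carry a provisional symbol.

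Levels on the later days are given for genes of the early response. The libraries of days 2, 4 and 7 were each set against the 1 Untreated library, so the levels are given side by side with no comparison of their differences. Il11 stood at 1.097 CPM in untreated cells and at 52.6, 7.19 and 3.59 CPM on days 2, 4 and 7. Lif stood at 3.66 CPM in untreated cells and at 31.7, 17.8 and 13.7 CPM on those days. Both cytokines were highest on day 2 of the 4 libraries. Inhba stood at 2.92 CPM in untreated cells and at 846, 318 and 204 CPM on days 2, 4 and 7, and Timp1 at 111 CPM in untreated cells and at 8712, 9777 and 3945 CPM. Hmga1 had 7.31 CPM in untreated cells and 294, 127 and 32.3 CPM on the 3 days. Of the 4 libraries, Timp1 was highest on day 4, and Inhba and Hmga1 on day 2. Spp1 stood at 7.49 CPM in untreated cells and at 357, 12975 and 72789.7 CPM on days 2, 4 and 7. Cthrc1 stood at 1.28 CPM in untreated cells and at 129, 969.9 and 2411 CPM. Both were highest on day 7. Tcf21 stood at 1230.2 CPM in untreated cells and at 49.7, 21.1 and 97.7 CPM on days 2, 4 and 7. Hsd11b1 stood at 2226 CPM in untreated cells and at 145, 58.003 and 29.9 CPM. Tcf21 was lowest on day 4, and Hsd11b1 on day 7. Fos had 53786 CPM in untreated cells and 2712, 2277 and 15482 CPM on the 3 days. Gsn had 173857 CPM in untreated cells and 2260.3, 884 and 1175 CPM. Fos was higher on day 7 than on days 2 and 4, while Gsn was lowest on day 4.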

How the data were processed

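RNA of each group was sequenced as 3′ tags by serial analysis of gene expression (SAGE) after 18 PCR cycles, per the labels' protocols. The authors deposited 1 table of CPM (counts per 1000000 tags) for 24408 genes in 6 libraries. BWA 0.6.2 and build mm9 are named in the submitters' processing notes. The enzyme that cuts the tags is not given in the sources used here.

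Whole tags were recovered from the CPM steps (100% of values within 0.001), giving 6175334 tags for Day 2 and 5470701 for Untreated. Genes whose mean over these libraries reached 10 CPM were kept, log2(CPM + 1) was compared, Day 2 minus Untreated, and the median was taken out. A gene was called at 4-fold. Intervals are exact (Clopper-Pearson for ratios, Poisson for levels) at 95%, and cover counting error only, since PCR copies are not independent molecules. With no tag in untreated cells, a fold is a lower bound against 3 tags. With 1 library a group, no test between the conditions was run, and the binomial test given below compares only the libraries. Calculations used Python 3.11.15, numpy 2.4.6, pandas 2.3.3 and scipy 1.17.1, and were tested on simulated data.

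Members and lists were chosen with earlier results of these data known. Named are the 12 genes of largest difference each way among those averaging 50 CPM or more, up to 5 called members each way and the 3 most abundant members of each list, and marked anchor genes. Beyond that rule, Ccl11, Clu, Gdf15, Gfpt2, Cd248, Sdc2, Ipo5, Pttg1, Psme1, Cct8, Dnmt1, F3 and the genes outside the lists were named after their values were seen. Tag sequences of 14 bases were taken from GENCODE transcripts, and promoters from RefSeq; motifs were sought on both strands, and motifs of 1 promoter may overlap. Some genes that meet the naming rule are not reported here.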

Additional observations from a re-analysis of the deposited data

How the results depend on the processing

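Main counts were 299 higher and 316 lower. No filter on low values gave 671 higher and 404 lower, and a mean of at least 50 CPM gave 126 higher and 167 lower among fewer genes. With no centring 578 were higher and 200 lower, so 74.3% of the calls were higher, against 48.6% in the main setting; median-ratio size factors gave 58.2%. Without the 100 most abundant genes CPM was rescaled to the remaining genes, so that 7060 genes reached the filter, against 4256 in the main setting. Of these 7060 genes 442 were higher and 607 lower. A 2-fold threshold gave 853 higher and 866 lower, and an 8-fold threshold 97 higher and 147 lower. Pseudocounts of 5 and 0.1 CPM gave 208 and 324 higher. Leaving out tag-sharing genes, an alternative chosen after seeing the data, gave 226 higher and 262 lower. Requiring an exact binomial test of the tags, which compares these libraries and not the conditions, left 299 and 316; 3269 genes (76.8%) passed that test alone. The median of the interleukin family was -0.0844 without the filter, against 1.63 with it. Of 287 named genes called in the main setting, 227 were still called with a pseudocount of 5 CPM and 245 with no centring, 0 with the other sign. No paired analysis was possible because each group was 1 library. Depth limits genes of few tags, whose intervals are wide.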
